A study of Mus musculus with 8 samples.

Results

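The genes described here act when an olfactory sensory neuron (OSN) commits itself to a single odorant receptor (OR), and when that receptor is carried to the cell surface. There were 9 of them among 19928 genes tested on the arrays, and each was represented by a single transcript cluster, in which the signals of a gene's exons are merged. The genes were chosen by function, not by a threshold on their values: Eif2ak3, Ddit3, Atf5, Hspa5 and Kdm1a for the feedback on receptor choice, and Rtp1, Rtp2, Reep1 and Reep6 for receptor transport. Values are log2 signals, so that a difference between groups is the log2 of a ratio of signals.

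Olfactory mucosa was taken at postnatal day 3 from mice of a mixed 129 x C57BL/6J background, and RNA of each mouse was hybridised to its own array. The mutants were 4 mice of genotype 123Cre:Lhx2(fl/fl), called cKO, in which a Cre transgene active from the immature OSN stage deletes the first exons of both floxed Lhx2 alleles. The littermate controls were 2 mice of genotype Lhx2(fl/+), called controls 1 and 2, and 2 of genotype 123Cre:Lhx2(fl/+), called controls 3 and 4, so that every mouse carried at least 1 floxed allele and only controls 3 and 4 among the controls also carried the Cre. Recombination reaches only part of the OSNs in this line, and basal cells that make Lhx2 mRNA are not targeted. A letter of unstated meaning opens each sample title: B for controls 1 and 2 and mutant 2, and A for all other mice. Letter and genotype therefore cannot be told apart among the controls.

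A newly made OR is folded in the endoplasmic reticulum (ER), where its accumulation engages the unfolded protein response of the neuron. The kinase encoded by Eif2ak3, also called Perk, then phosphorylates the translation factor eIF2alpha, which lowers protein synthesis but allows the transcription factor Atf5 to be translated. Atf5 in turn promotes maturation and the expression of Adcy3, the adenylyl cyclase of odor transduction, and the histone demethylase Kdm1a, which opens OR genes for choice, is withdrawn so that no other OR gene is derepressed. The receptor transporting proteins Rtp1 and Rtp2 help ORs to leave the ER and reach the plasma membrane, and the REEP proteins shape ER membranes and can act as receptor accessory proteins. Much of this feedback works through translation and phosphorylation, to which mRNA arrays are blind.

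Of the 4 receptor transport genes, 3 read lower in every mutant than in any control, and of the 5 feedback genes 3 did so. Of the 9 members, 0 passed an adjusted p under 0.01 by limma, a threshold that 2.13% of all genes passed, 2.07% being lower and 0.0602% higher, and 0 passed by the methods' t-test after adjustment. Only 1 of all genes (0.00502%) passed there, so a count of 0 by the methods' t-test, here or in any list below, says nothing about the genes of the list. At an unadjusted p under 0.01 of the methods' t-test, 2 members (Eif2ak3 and Rtp1) were lower and 0 higher, where 5.64% of all genes were lower and 1.18% higher. By limma, Rtp1 passed the looser threshold of 0.05, which 5.17% of all genes met in the lower direction and 0.366% in the higher. At an unadjusted p under 0.05 by limma, 6 members were lower and 0 higher, where 9.87% of all genes were lower and 5.13% higher. The mutants lay below all controls without overlap for those 6 members, as they did for 8.43% of all genes, and above all controls for 0 members and 3.18% of all genes. Without mutant 2, which had the lowest mean of OR genes and of mature OSN markers, the count at an unadjusted p under 0.05 was 4 (9.16% of all genes), that without overlap was still 6 (9.41% of all genes), and Rtp1 passed 0.01 (3.3% of all genes were lower). Over the members the median log2 difference was -0.18, against 0.03 over all genes.

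**Figure D1:**
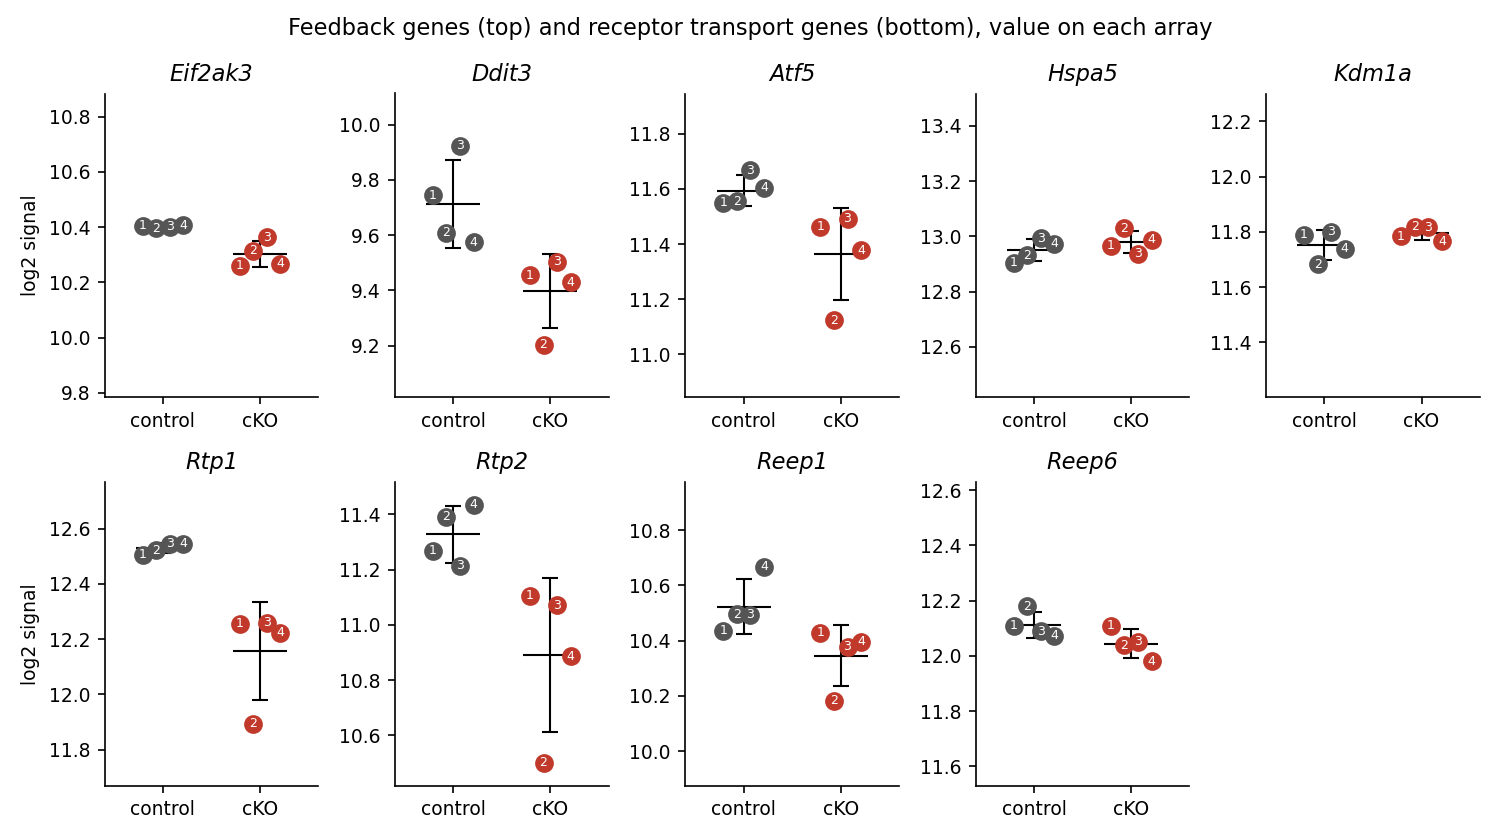
Log2 signal (vertical axes, each spanning the same range of log2 units) of the 9 members on every array, for controls (grey) and cKO mice (red). Numbers in the points name the mice, and bars give mean and SD over 4 mice. Mutants and controls do not overlap for Eif2ak3, Ddit3, Atf5, Rtp1, Rtp2 and Reep1, while Hspa5, Kdm1a and Reep6 overlap.

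In a sample of whole mucosa, fewer cells of a type and less mRNA per cell cannot be told apart, which holds for each value here. The targeted gene, Lhx2, read 12.55 in mutant 2, 13.01 to 13.03 in the other mutants and 13.09 to 13.20 in controls. Its difference was -0.24 (SE 0.11, adjusted p = 0.337), and -0.12 without mutant 2. The cluster also reads exons that are not deleted. Over 20 markers of mature OSNs the mean log2 value was 10.91 to 11.50 in mutants and 11.99 to 12.07 in controls, a mean difference of -0.72. The paper reports a smaller average decrease over its own, longer list of mature OSN mRNAs in this mutant line. The -0.72 therefore belongs to these 20 markers. All 20 differences were below 0, 18 markers had no overlap between the groups, 7 fell at an adjusted p under 0.01 by limma (15 at 0.05), and 0 passed the methods' t-test after adjustment. Omp, which marks mature OSNs, fell by 0.97 on the log2 scale (SE 0.14, adjusted p = 0.00605). Its adjusted p was above 0.01 in 6 of the 8 fits that left out 1 array (at most 0.0242), by the methods' t-test (0.0595) and with Lhx2(fl/+) controls (0.0878) or 123Cre:Lhx2(fl/+) controls (0.0755) alone. The mean of 16 immature OSN markers was 11.88 to 12.01 in mutants and 11.98 to 12.06 in controls, a mean difference of -0.05. Of the 16, 1 fell at an adjusted p under 0.01 by limma, while 4 were lower and 1 higher at an unadjusted p under 0.05. All mutants lay below all controls for 4 of the 16 and above them for 0. The mean over 1015 OR genes differed by -0.89. How far the lower mature OSN signal enters a member's value was not tested. In 11 lists of markers of other cells, from OSN progenitors to glia and blood, 0 genes passed 0.01 by limma or by the methods' t-test, 4 were lower and 5 higher at an unadjusted p under 0.05 by limma, and the list medians lay between -0.32 (blood, 2 genes) and 0.13. Each of the 9 members read well above the genes of vomeronasal receptors, whose median was log2 5.36, and the lowest member value was 9.20 for Ddit3 in mutant 2.

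Rtp1, the transporter protein best known for bringing ORs to the surface of cells, had the smallest p of the 9 members by limma, while Eif2ak3 had it by the methods' t-test. It read 12.26, 11.89, 12.26 and 12.22 in mutants 1 to 4. In controls 1 to 4 it read 12.51, 12.52, 12.55 and 12.54. The controls therefore differed by very little (SD 0.019, n = 4), the mutants by more (SD 0.18, n = 4), and mutant 2 stood apart at the low end. The log2 difference was -0.37 (SE 0.08, 95% confidence interval -0.56 to -0.19), or 22.7% lower (limma, adjusted p = 0.0327). Without mutant 2 the difference was smaller, at -0.28, but the adjusted p was 0.00566. With the title letter as a block the difference was -0.41 (adjusted p = 0.00972). Within letter A, which leaves out mutant 2, it was -0.30. Within letter B, where mutant 2 is the only mutant, it was -0.62.

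Rtp2, the close relative of Rtp1 with the same role, read 11.11, 10.50, 11.07 and 10.89 in mutants 1 to 4. Controls 1 to 4 read 11.27, 11.39, 11.21 and 11.43. The groups did not overlap, but mutants 1 and 3 came close to control 3. Rtp2 differed by -0.44 on the log2 scale (SE 0.13, 95% confidence interval -0.73 to -0.15), or 26.1% lower, and did not pass (adjusted p = 0.103 by limma). Without mutant 2 it was -0.31, and it was -0.30 within letter A and -0.83 within letter B, where mutant 2 is the only mutant. The fitted difference of Rtp2 lay further from 0 than that of Rtp1, while its larger spread between mice gave it the larger p.

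The Rtp2 promoter is shown because it holds a match to the O/E-like motif that is common in OR promoters and is bound by Ebf factors. The sequence is that of RefSeq for build GRCm38.p6, chr16:23930745-23931044 on the minus strand, running from 250 bases before the gene start to 50 after it, 5′ to 3′, with the match in capitals.
Rtp2 promoter: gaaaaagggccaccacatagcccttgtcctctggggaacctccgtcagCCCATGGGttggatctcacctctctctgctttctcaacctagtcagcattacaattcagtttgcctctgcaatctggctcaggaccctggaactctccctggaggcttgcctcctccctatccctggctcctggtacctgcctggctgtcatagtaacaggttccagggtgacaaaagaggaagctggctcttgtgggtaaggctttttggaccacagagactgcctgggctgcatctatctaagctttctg
The match to CCCNNGGG spans bases -202 to -195 from the start. Motifs were searched on both strands in the 7 members with a promoter sequence, which leaves out Rtp1 and Reep6. The O/E-like motif CCCNNGGG was found for 3 of the 7 (Rtp2, Reep1 and Hspa5) and for 15.4% of 27025 genes with promoters of this length. The homeodomain motif TAATTA, the type of site that Lhx2 binds, was found for 0 of the 7 and for 6.12% of genes. These letters describe the windows and say nothing about binding.

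Reep1, an ER-shaping protein with a part in receptor trafficking, read 10.43, 10.18, 10.38 and 10.40 in mutants 1 to 4. Controls 1 to 4 read 10.44, 10.50, 10.49 and 10.67. The groups only just failed to overlap, since mutant 1 and control 1 nearly met. Reep1 differed by -0.18 on the log2 scale (SE 0.07, 95% confidence interval -0.34 to -0.02, adjusted p = 0.275), or 11.6% lower, and -0.12 without mutant 2. Control mice with the Cre read 0.11 higher than those without it, so the choice of controls moved this value more than that of any other member. Against 123Cre:Lhx2(fl/+) controls alone the difference was -0.24, and against Lhx2(fl/+) controls alone -0.12.

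Reep6, another ER membrane protein of the family, read 12.11, 12.04, 12.05 and 11.98 in mutants 1 to 4. Controls 1 to 4 read 12.11, 12.18, 12.09 and 12.07. The groups overlapped through mutant 1. Its log2 difference was -0.07 with a 95% confidence interval of -0.17 to 0.04 (adjusted p = 0.576 by limma).

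In the feedback, Eif2ak3 encodes the stress kinase at its start. It read 10.26, 10.31, 10.36 and 10.27 in mutants 1 to 4, against 10.41, 10.40, 10.40 and 10.41 in controls 1 to 4. The controls were almost identical (SD 0.0052, n = 4) and the mutants all lay below them. The log2 difference was small, -0.10 (SE 0.04, 95% confidence interval -0.19 to -0.01), or 6.76% lower (limma, adjusted p = 0.279). Unlike Rtp1, Rtp2 and Reep1, Eif2ak3 was not lowest in mutant 2, and without that mouse the difference was -0.11.

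Ddit3, also known as Chop, is a transcription factor induced downstream of the stress kinases. Mutants 1 to 4 read 9.45, 9.20, 9.50 and 9.43. Controls 1 to 4 read 9.74, 9.61, 9.92 and 9.57. The controls spread as widely as the mutants, yet the highest mutant stayed below the lowest control. Ddit3 differed by -0.31 on the log2 scale (SE 0.09, 95% confidence interval -0.52 to -0.10), or 19.6% lower, and did not pass (adjusted p = 0.107 by limma). It was -0.25 without mutant 2 and -0.24 without control 3, the highest control.

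Atf5, the transcription factor through which the feedback is thought to reach the OSN genome, read 11.46, 11.12, 11.49 and 11.38 in mutants 1 to 4. Controls 1 to 4 read 11.55, 11.55, 11.67 and 11.60. All mutants were lower than all controls, and mutant 2 was the lowest. Atf5 differed by -0.23 on the log2 scale (SE 0.08, 95% confidence interval -0.41 to -0.05, adjusted p = 0.196), or 14.7% lower, and -0.15 without mutant 2, which moved the value by more than 1.5 times.

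Hspa5, also called BiP, is the major ER chaperone and the classical readout of an unfolded protein response. Mutants 1 to 4 read 12.97, 13.03, 12.94 and 12.99, and controls 1 to 4 read 12.90, 12.93, 12.99 and 12.97. The groups overlapped almost completely, and mutant 2 was the highest of all mice here. Its log2 difference was 0.03, with a 95% confidence interval of -0.07 to 0.13 (adjusted p = 0.817 by limma). It turned to -0.02 within letter A and to -0.0028 against 123Cre:Lhx2(fl/+) controls alone.

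Kdm1a, the demethylase at the end of the loop, read 11.78, 11.82, 11.82 and 11.77 in mutants 1 to 4. In controls 1 to 4 the values were 11.79, 11.68, 11.80 and 11.74. The groups overlapped, and the log2 difference was 0.04 with a 95% confidence interval of -0.05 to 0.14 (adjusted p = 0.722 by limma). In each setting tried without a subtracted reference the difference was between 0.02 and 0.08. Adcy3, the cyclase that the feedback leads to and itself a mature OSN marker, read 11.46, 11.01, 11.33 and 11.24 in mutants and 12.06, 12.10, 12.24 and 12.08 in controls. It fell by 0.86 on the log2 scale (SE 0.09, adjusted p = 0.00267), or 44.9%. Its adjusted p was between 0.000468 and 0.0126 when 1 array was left out and above 0.01 in 6 of these 8 fits. It was also above 0.01 by the methods' t-test (0.0427) and with Lhx2(fl/+) controls (0.0505) or 123Cre:Lhx2(fl/+) controls (0.0489) alone.

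**Figure D2:**
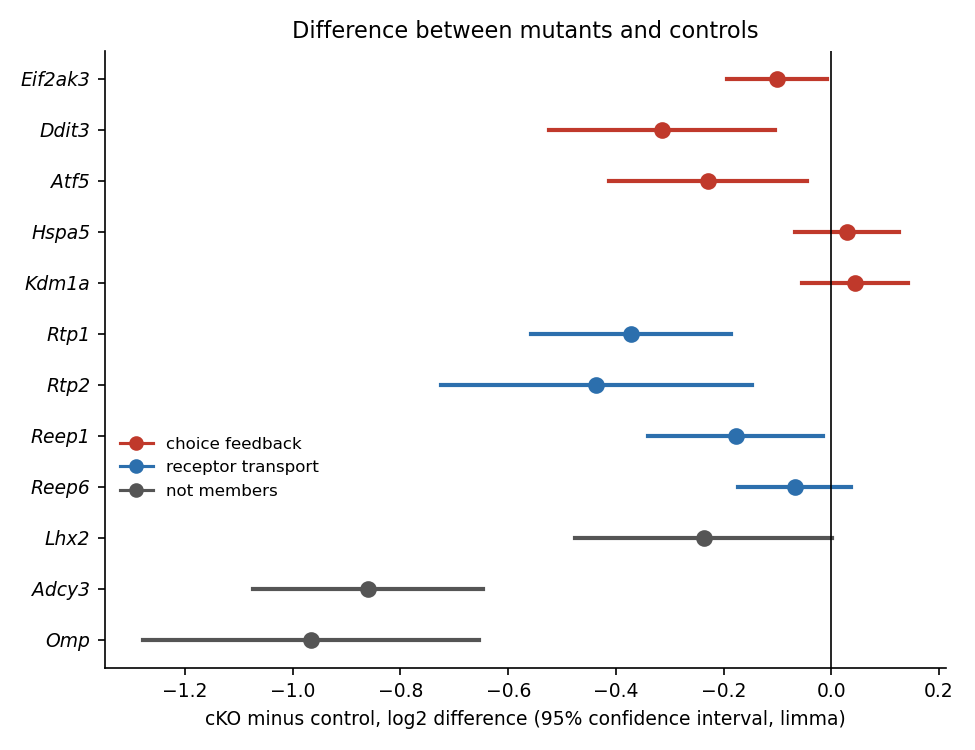
Mutant minus control log2 difference (points) with its 95% confidence interval from limma (lines), for the feedback genes (red), the receptor transport genes (blue) and, for orientation, Lhx2, Adcy3 and Omp (grey). The intervals of Hspa5, Kdm1a, Reep6 and Lhx2 include 0, and those of Rtp1 and Rtp2 end at -0.19 and -0.15.

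Mutant 2 was the lowest mouse in 5 members. Against the mean of the controls it read -0.83 for Rtp2, -0.64 for Rtp1, -0.51 for Ddit3, -0.47 for Atf5 and -0.34 for Reep1. The other mutants ranged from -0.44 to -0.22 for Rtp2 and from -0.31 to -0.27 for Rtp1. The mature OSN mean was -1.12 in mutant 2 and -0.63 to -0.53 in the others, and the OR mean was -1.36 against -0.80 to -0.63. The immature OSN mean was -0.14 in mutant 2 and -0.03 to -0.02 in the others. Mutant 2 was thus the lowest in the marker means and in these members alike, and it was also the lowest in Lhx2.

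**Figure D3:**
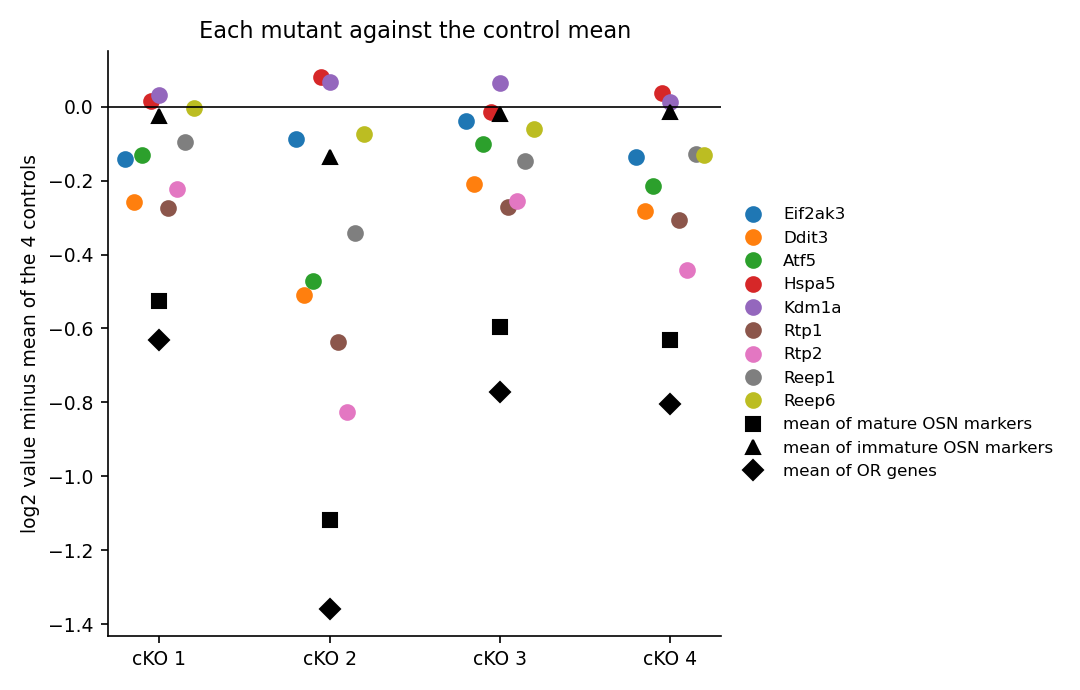
Log2 value of each mutant minus the mean of the 4 controls (vertical axis) for the 9 members (coloured circles) and for the means of mature OSN markers (squares), immature OSN markers (triangles) and OR genes (diamonds). In each mutant the members lie between 0.08 above the control mean and the mature OSN mean, and in mutant 2 Rtp2 reaches -0.83 while the mature OSN mean is at -1.12.

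To relate the members to the neurons that hold the receptors, the mean log2 value of the mature OSN markers, none of which is a member, was subtracted from every gene array by array. Relative to these markers all 9 members were higher in every mutant than in any control. The share of all genes without overlap was not counted on this scale or relative to the OR genes below. The lack of overlap is therefore not read as particular to the members. The paper's longer list of mature OSN mRNAs fell by less on average. Subtracting a reference that falls by less gives lower differences. The average decrease that the paper gives is smaller than the falls of Rtp1, Rtp2 and Ddit3 here. The higher readings therefore belong to the markers used here, and the sign of a member relative to the paper's list was not tested. The smallest relative differences were those of Rtp2 (0.28, 95% confidence interval -0.06 to 0.62, adjusted p = 0.104) and Rtp1 (0.35, adjusted p = 0.0451). They were followed by Ddit3 (0.40, adjusted p = 0.0195), Atf5 (0.49, adjusted p = 0.00468) and Reep1 (0.54, adjusted p = 0.00175). The values of Eif2ak3 (0.62), Reep6 (0.65), Hspa5 (0.75) and Kdm1a (0.76) were close to the whole shift of the markers. In all, 6 members were higher at an adjusted p under 0.01 by limma, but so were 92.8% of all genes, with 1.34% lower, so that this count says nothing particular to the members. Each of these differences had the same SE of 0.17, because the fit gave the members a common variance. The intervals and adjusted p-values of these relative differences therefore do not measure the spread of a single member. By the methods' t-test with adjustment 8 members passed 0.01, all but Ddit3. The share of all genes was not counted for this test, so this count is not read as particular to the members either.

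Relative to the mean of the OR genes, the members were likewise higher in each mutant. Here too the fit gave every member the same SE, 0.19. Rtp2 differed by 0.46 (adjusted p = 0.0181) and Rtp1 by 0.52 (adjusted p = 0.00692), and 8 members passed 0.01, as did 94.2% of all genes in the higher direction and 0.738% in the lower. With only 123Cre:Lhx2(fl/+) controls the count of members that passed dropped from 8 to 4, as Atf5, Ddit3, Reep1 and Rtp1 no longer passed. Rtp2 passed in neither fit. The share of all genes with these controls was not counted.

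Other genes of the unfolded protein response, of the Kdm1a complex and of the RTP and REEP families were examined as lists. Of 83 such genes, 1 was lower and 0 higher at an adjusted p under 0.01 in limma. Their median log2 difference was 0.00, against 0.03 over all genes, and all lay between -0.45 and 0.22. At an unadjusted p under 0.05, 7 were lower and 3 higher.

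Among 20 ER chaperones and folding enzymes, Dnajb9 fell. Dnajb9, an ER co-chaperone of Hspa5 also called ERdj4, read 11.33, 11.15, 11.34 and 11.36 in mutants 1 to 4. The controls read 11.68, 11.81, 11.71 and 11.68 in the same order. The groups did not overlap. Its log2 difference was -0.43 (SE 0.06, adjusted p = 0.00561), or 25.6% lower. Leaving out 1 array moved the adjusted p to between 0.00299 and 0.0208, and of these 8 fits the gene passed 0.01 only in that without mutant 2. It did not pass by the methods' t-test (0.0467) or with Lhx2(fl/+) controls (0.0691) or 123Cre:Lhx2(fl/+) controls (0.0717) alone. The rest of this group read between -0.07 and 0.13, with Creld2, a secreted ER stress factor, at 0.13 (adjusted p = 0.167) and the disulfide isomerase Pdia6 at 0.08 (adjusted p = 0.385), both higher in all mutants than in all controls. The median of the group was 0.03.

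Of 20 targets of Atf4 and Ddit3, 0 passed 0.01 by limma or by the methods' t-test, 4 were lower at an unadjusted p under 0.05 by limma and 0 higher. Sesn2, a stress-induced inhibitor of growth signalling, missed the threshold narrowly. Mutants 1 to 4 read 9.43, 9.21, 9.37 and 9.33, against 9.77, 9.68, 9.94 and 9.70 in controls 1 to 4, a log2 difference of -0.44 (SE 0.07, adjusted p = 0.01001). The lipoprotein receptor gene Vldlr (-0.25, adjusted p = 0.0284) and Cth, an enzyme of cysteine synthesis (-0.33, adjusted p = 0.06), were also lower in all mutants. The median of the 20 genes was -0.05.

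Among 15 stress sensors and regulators 0 passed 0.01 in limma or in the methods' t-test, and 2 were lower at an unadjusted p under 0.05. Ppp1r15a, the phosphatase subunit that ends the eIF2alpha signal, had the lowest value (-0.45, SE 0.14, adjusted p = 0.124), with mutant 2 at 9.58 and the other mutants at 10.15 to 10.23, against 10.40 to 10.58 in controls. Nfe2l2, the regulator of antioxidant genes, differed by -0.17 (adjusted p = 0.0905) and Atf6, an ER stress sensor, by -0.08 (adjusted p = 0.374). By the methods' t-test the adjusted p of Atf6 was 0.0331. In these 3 of the 15 genes all mutants lay below all controls, as in 8.43% of all genes. The genes for the other central regulators, named here outside the rule for named genes, hardly differed: Atf4 by -0.04 (adjusted p = 0.785), Xbp1 by 0.0047 (adjusted p = 0.98) and Ern1 by -0.03 (adjusted p = 0.847). Of 11 genes of ER-associated degradation 0 passed in limma or in the methods' t-test and 0 had an unadjusted p under 0.05, with Derl3 at 0.13, Herpud1 at -0.12 and Os9 at -0.11.

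The partners of Kdm1a, listed together with its paralog Kdm1b, did not pass either (0 of 11 in limma and in the methods' t-test, 2 higher at an unadjusted p under 0.05). Rcor2, a CoREST scaffold of neural progenitors, read 0.22 higher (adjusted p = 0.181), and the paralog Kdm1b read 0.13 higher (adjusted p = 0.186). Hmg20b, a further subunit, was at 0.08. Of the 6 other RTP and REEP genes, 0 passed in limma or in the methods' t-test, and 0 had an unadjusted p under 0.05. Reep2 read 0.22 (adjusted p = 0.353), Rtp4, an interferon-induced relative of Rtp1, read -0.16 (adjusted p = 0.407) and Reep5 read 0.07. Their median was 0.03, while the 4 transport members had a median of -0.27, and this difference was not tested.

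**Figure D4:**
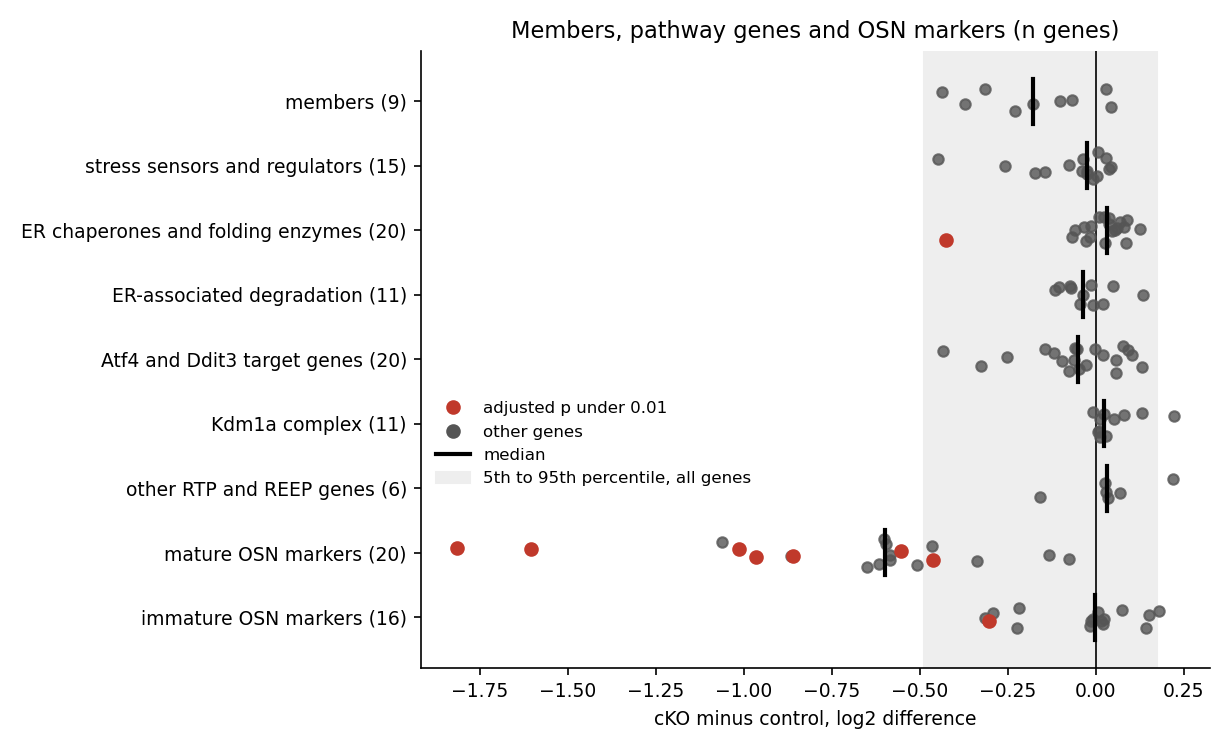
Mutant minus control log2 difference (horizontal axis) of single genes in the members, in 6 lists of other pathway genes and in the OSN marker lists, with the number of genes in brackets. Red points passed an adjusted p under 0.01, black bars are medians, and the grey band holds the 5th to 95th percentile of all genes (-0.49 to 0.17). Dnajb9 is the single red point among the pathway lists.

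Genes of the chaperone branch share a promoter motif, the ER stress response element, through which Atf6 and Xbp1 act. The promoter of Hspa5 is shown because it carries this element. It is the RefSeq sequence of build GRCm38.p6, chr2:34771840-34772139 on the plus strand, 250 bases before to 50 after the gene start, 5′ to 3′, with the O/E-like match (bases -174 to -167) and the ER stress response element (bases -65 to -47) in capitals.
Hspa5 promoter: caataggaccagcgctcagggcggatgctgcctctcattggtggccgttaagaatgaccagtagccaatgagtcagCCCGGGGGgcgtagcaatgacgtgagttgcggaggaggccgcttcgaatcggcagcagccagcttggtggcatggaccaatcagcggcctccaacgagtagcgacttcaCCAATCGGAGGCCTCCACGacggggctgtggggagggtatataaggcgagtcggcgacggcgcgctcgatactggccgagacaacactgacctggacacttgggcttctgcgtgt
The element was searched on both strands as CCAAT and CCACG separated by 9 bases of any kind and was found for 37 of 27025 genes (0.137%), among them Hspa5 as the single one of the 7 members with a promoter to search and 9 of the other pathway genes (Calr, Canx, Creld2, Derl3, Dnajc3, Ero1b, Hsp90b1, Pdia6 and Syvn1). These 10 genes read between -0.03 and 0.13 with a median of 0.03, and 0 of them passed an adjusted p under 0.01 by limma (1, Creld2, had an unadjusted p under 0.05). The 59 pathway genes with a promoter and no such match ranged from -0.45 to 0.22 with a median of -0.01, and Dnajb9 was among them. An element with a changed letter escapes this search. The motif TGATGNAA, a form of the site used by Atf4 and Ddit3, was found in 1 of the 7 member promoters, that of Kdm1a, and for 4.51% of genes.

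**Figure D5:**
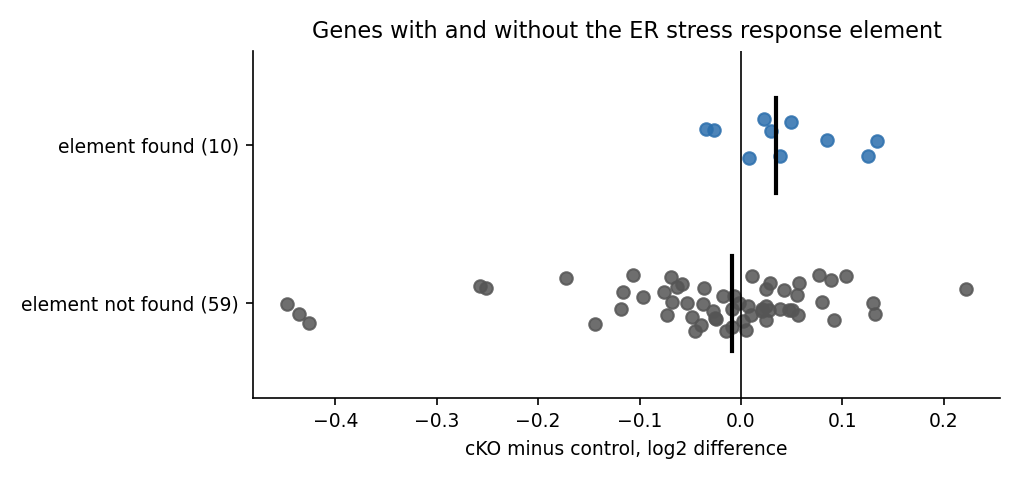
Mutant minus control log2 difference (horizontal axis) of Hspa5 and other pathway genes whose promoter held the ER stress response element (10 genes, blue) and of pathway genes whose promoter did not (59 genes, grey). Black bars are medians, at 0.03 and -0.01.

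The genes whose profile over the 8 arrays was nearest to that of Rtp1, after each gene was centred on its own mean, were Oscp1, Kif3c and Ak1. Their root mean square differences from Rtp1 were 0.035, 0.037 and 0.037 on the log2 scale among 13722 genes compared. OR genes, genes with only a provisional symbol and genes below the lower quartile of level were left out of this comparison. Ak1, an adenylate kinase, differed by -0.38, Kif3c, a kinesin motor subunit, by -0.39 and Oscp1 by -0.37, and like Rtp1 they read lowest in mutant 2. Nearest to Rtp2 were the kinase gene Cdkl4 (0.062), the dopamine receptor gene Drd2 (0.063) and the phosphodiesterase gene Pde7b (0.063), with differences of -0.44, -0.51 and -0.39. They were chosen for this likeness, so their differences are given as a description.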

How the data were processed

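Olfactory mucosa RNA of 8 mice was hybridised to GeneChip Mouse Gene ST arrays (Affymetrix), 1 per mouse. The authors deposited 1 log2 signal for each of 28312 transcript clusters, made with Affymetrix Expression Console per the submitters' processing notes. Summarization, background correction and software version were not stated in these sources, and array medians lay between 8.82 and 8.89. Differences of dim genes may read too small in such values, which was not tested.

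Clusters were named from the platform annotation, 21759 of them with 1 symbol, and 21668 matched a RefSeq gene table (GRCm38.p6) by Entrez identifier. The brightest cluster was kept per gene. The cKO minus control differences of 19928 genes were tested with limma 3.58.1 in R 4.3.3 (lmFit, eBayes, two-sided, Benjamini-Hochberg over all genes, threshold 0.01). The number of arrays limits the precision (median SE 0.07). The script was tested on simulated data. Members, lists, motifs and tests were chosen with earlier results of these data known. Besides members, Lhx2 and Adcy3, up to 3 genes with the smallest p per pathway list were named, and the 3 genes nearest to Rtp1 and to Rtp2. Alternatives were the methods' t-test (without the paper's own normalization), other thresholds, moderation, normalization, filters and weights, the title letter, subsets of controls and leaving out each array. Promoters came from RefSeq (GRCm38.p6).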

Additional observations from a re-analysis of the deposited data

Results flagged for a closer look

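In 66 groups of 4 arrays (members, named genes and marker means), 8 held a mouse that stood apart from the other 3 by Dixon's criterion, where chance gives about 1 in 20. In 7 of them it was mutant 2, at the low end. Among the members this was Rtp1, which read 11.89 in mutant 2 and 12.22 to 12.26 in the other mutants. Mutant 2 also stood apart in Ppp1r15a (9.58 against 10.15 to 10.23), Dnajb9 (11.15 against 11.33 to 11.36), Herpud1 (11.54 against 11.80 to 11.85), Lhx2 (12.55 against 13.01 to 13.03), Omp (11.997 against 12.59 to 12.68) and the mean of the immature OSN markers (11.88 against 11.99 to 12.01). In Hmg20b it was mutant 4 (9.32 against 9.41 to 9.43).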

How the results depend on the processing

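No member passed an adjusted p under 0.01 as reported, but 1 (Rtp1) did at a threshold of 0.05, 1 (Rtp1) with the title letter as fixed block and 2 (Eif2ak3 and Rtp1) at an unadjusted p under 0.01 of the methods' t-test, which 5.64% of all genes passed in the lower direction and 1.18% in the higher, and 0 to 1 when 1 array was left out (1, Rtp1, without mutant 2). Of the pathway genes, 1 passed as reported, 3 at a threshold of 0.05 and 8 at an unadjusted p under 0.01 of the methods' t-test. It was 2 with trended and robust eBayes, without dim genes, with the letter as fixed block and with array weights. It was 0 by the adjusted t-test (1 of all genes passed), within letter A, within letter B and with either control genotype alone, which have fewer arrays, and 0 to 1 when 1 array was left out (1 only without mutant 2). Relative to the mature OSN markers 6 members passed, 2 with Lhx2(fl/+) controls only and 5 to 9 with 1 array left out. Relative to the OR genes 8 passed, 4 with 123Cre:Lhx2(fl/+) controls only and 6 to 9 with 1 array left out. The cause of these shifts was not tested, and the fits on subsets also have fewer arrays.

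The sign of a member turned only where a reference was subtracted, and for Hspa5. Relative to the mature OSN markers the differences became 0.62 (Eif2ak3), 0.40 (Ddit3), 0.49 (Atf5), 0.35 (Rtp1), 0.28 (Rtp2), 0.54 (Reep1) and 0.65 (Reep6). Relative to the OR genes they became 0.79, 0.58, 0.66, 0.52, 0.46, 0.71 and 0.82 in the same order. Hspa5 turned to -0.0194 within letter A and to -0.0028 against 123Cre:Lhx2(fl/+) controls. No paired analysis was possible because the replicate numbers were given in accession order and pair no mice.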
